A study of Mus musculus with 42 samples.

Results

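The genes followed here make cholesterol and fatty acids or control that synthesis. They were 33 listed genes, chosen by name and matched by symbol to the gene identifiers in the files, and all 33 were among the 14296 genes measured. The list holds 7 genes of the mevalonate branch, 10 of the sterol branch, 5 regulators, 1 sterol carrier, 9 genes of fatty acid synthesis and desaturation, and 1 phosphatidate phosphatase. Poly-A RNA was sequenced from W9.5 mouse embryonic stem cells (mESC) of strain 129X1/SvJ at passage 18, a single line with no added transgene named in the labels. The cells were left to differentiate without direction into embryoid bodies after leukaemia inhibitory factor (LIF) was withdrawn. Cultures were harvested at 21 time points, every 6 h from 0 h to 120 h, in biological duplicate courses labelled A and B, which gave 42 libraries. The groups differed by time alone, and no course kept in LIF alongside was analysed here, so time in culture and differentiation cannot be told apart.

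Cholesterol is built from acetyl-CoA. The mevalonate branch makes isoprenoid units, and the sterol branch joins them into squalene, closes the rings and trims lanosterol to cholesterol. Fatty acid synthesis also starts from acetyl-CoA, and elongases and desaturases then shape the chains that enter membranes and storage fat. Both branches answer to the sterol regulatory element binding proteins (SREBPs), membrane-bound transcription factors that are cut free when sterols are scarce and that bind the promoters of many of the genes described here. Insig proteins hold the SREBPs in the endoplasmic reticulum when sterols are plentiful. Early embryos and stem cells draw on both routes for new membrane.

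The level of a gene is given as log2 CPM, the log2 of counted reads scaled to the normalised size of the library, with 1 value per library. Where genes are compared with each other, RPKM is used, which also divides the reads by the length of the annotated exons. A gene was said to have risen or fallen only where limma, fitted across all 14296 genes and 42 libraries, gave an adjusted p under 0.0001. Libraries held a median of 29692082 counted reads, from 10120972 to 51652434, so that 3 reads were worth 0.057 to 0.316 CPM. All 33 genes were above this, the least covered being Nr1h3 with 8 reads in its poorest library and Tm7sf2 with 58. Duplicates lay furthest apart at 96 h, with a median distance between A and B of 0.43 log2 units over the members and 0.41 over all genes, against 0.10 for both at 120 h. The mesoderm markers measured, 4 of 6 listed (T, Mixl1, Kdr and Hand1), summed to 290.0 CPM in library B at 96 h and to 60.8 CPM in library A. Of 35 marker genes of 5 cell types, 27 were measured, among them all 6 of pluripotent cells. Those 6 summed to 3400.0 and 3670.0 CPM at 0 h and to 4190.0 and 4300.0 CPM at 6 h. Their sums were 1370.0 and 1420.0 CPM at 72 h and 1580.0 and 1530.0 CPM at 120 h. The 0 h cultures therefore carried the markers of their label, and Pou5f1 was at 9.88 and 10.08 log2 CPM there. Neuroectoderm markers, 5 of 5, summed to 30.7 and 27.2 CPM at 0 h and 227.0 and 208.0 CPM at 120 h, fibroblast markers, 6 of 7, to 24.3 and 28.1 CPM and then 102.0 and 91.7 CPM, and endoderm markers, 6 of 11, stayed between 3.24 and 29.8 CPM at the 7 time points summed. The 6 fibroblast markers did not move together. Thy1 was lower at 120 h (1.79 and 1.85 log2 CPM) than at 0 h (4.27 and 4.47). The others were higher at 120 h, with Col1a1 at 2.26 and 2.53 log2 CPM at 0 h and at 5.94 and 5.86 at 120 h. The part of this changing make-up in the results below was not tested. In such bulk cultures, fewer cells of a type and less RNA per cell cannot be told apart. Exons of 11 members overlap exons of another gene annotated in GENCODE vM21, for 7 of them on the opposite strand and for 5 on the same strand. Reads were counted on GENCODE vM2, and whether these genes have the same overlaps there was not checked. The library kit kept strand, but the strand setting of the counting is not given in the sources used here, so the values of these genes are uncertain to that extent, with Fdps, Tm7sf2 and Nr1h3 among those on the same strand.

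Binding of the SREBPs was not measured in these data, and its part in the courses was not tested. Promoters are shown as a description for 6 members of the cholesterol route that fell late in the course. They are the genes of the mevalonate and sterol branches, with Insig1, that fell between 72 h and 96 h or between 96 h and 120 h and have a single promoter window. Each window runs from 250 bases before the start of the gene to 50 after it, 5′ to 3′ on the gene's strand, from RefSeq on GRCm38.p6. Capitals mark the letters TCACNCCAC (a form of the sterol regulatory element), CCAAT (the CCAAT box bound by NF-Y) and GGGCGG (the GC box bound by Sp1), on either strand.
Hmgcs1 (chr13:119690101-119690400, plus strand): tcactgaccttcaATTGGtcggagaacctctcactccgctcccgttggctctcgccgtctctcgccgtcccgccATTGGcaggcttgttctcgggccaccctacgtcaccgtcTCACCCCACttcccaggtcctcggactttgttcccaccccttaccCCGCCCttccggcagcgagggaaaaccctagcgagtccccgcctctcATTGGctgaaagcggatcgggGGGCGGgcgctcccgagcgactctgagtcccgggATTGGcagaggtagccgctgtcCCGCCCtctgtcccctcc
Idi1 (chr13:8885356-8885655, plus strand): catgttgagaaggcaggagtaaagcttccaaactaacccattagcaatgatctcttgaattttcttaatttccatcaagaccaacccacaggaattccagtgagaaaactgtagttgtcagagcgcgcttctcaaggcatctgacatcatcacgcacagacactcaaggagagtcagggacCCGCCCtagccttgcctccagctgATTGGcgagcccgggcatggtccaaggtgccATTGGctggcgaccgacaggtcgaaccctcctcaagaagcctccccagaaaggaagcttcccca
Lss (chr10:76531355-76531654, plus strand): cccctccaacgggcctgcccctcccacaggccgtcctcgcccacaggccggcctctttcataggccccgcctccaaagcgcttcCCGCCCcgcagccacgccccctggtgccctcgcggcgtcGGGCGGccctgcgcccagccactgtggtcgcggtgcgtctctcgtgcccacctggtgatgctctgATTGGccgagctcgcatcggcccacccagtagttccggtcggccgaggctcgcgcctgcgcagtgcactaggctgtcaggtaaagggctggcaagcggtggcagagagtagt
Cyp51 (chr5:4104648-4104947, minus strand): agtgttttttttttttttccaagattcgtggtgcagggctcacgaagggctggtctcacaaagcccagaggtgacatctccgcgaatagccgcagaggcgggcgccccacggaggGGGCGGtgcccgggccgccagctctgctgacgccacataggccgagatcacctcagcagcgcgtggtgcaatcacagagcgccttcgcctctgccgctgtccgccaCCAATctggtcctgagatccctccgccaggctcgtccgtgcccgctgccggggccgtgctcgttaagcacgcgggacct
Msmo1 (chr8:64733529-64733828, minus strand): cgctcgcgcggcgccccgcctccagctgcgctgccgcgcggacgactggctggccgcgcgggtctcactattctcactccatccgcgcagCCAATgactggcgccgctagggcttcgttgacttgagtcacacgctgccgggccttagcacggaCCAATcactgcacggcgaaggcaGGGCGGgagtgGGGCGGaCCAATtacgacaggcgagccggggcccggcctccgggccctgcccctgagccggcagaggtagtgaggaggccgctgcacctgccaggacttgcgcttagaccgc
Insig1 (chr5:28071162-28071461, plus strand): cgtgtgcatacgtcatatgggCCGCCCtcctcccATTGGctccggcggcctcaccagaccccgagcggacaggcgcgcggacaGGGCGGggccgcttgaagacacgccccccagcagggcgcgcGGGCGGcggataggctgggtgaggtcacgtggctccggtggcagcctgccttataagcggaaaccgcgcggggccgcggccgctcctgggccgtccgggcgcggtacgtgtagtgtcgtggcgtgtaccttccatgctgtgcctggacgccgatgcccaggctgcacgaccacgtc

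Windows were given for 26 of the 33 members, with 34 windows in all. CCAAT was present in 21 of the 34 windows (61.8%), against 37.4% of all 32851 windows. GGGCGG was present in 23 (67.6%), against 35.7%. The letters TCACNCCAC occurred in 1 window, that of Hmgcs1, or 2.94% against 1.24% of all windows. None of these matches overlapped another motif in the windows printed. A match describes the letters alone and is not a measured site.

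Most of the 33 genes followed a common course with 2 low points and 1 high point. The median difference from 0 h over the members was -0.56 at 6 h and -0.60 at 12 h, came back to 0.01 at 54 h, and was -1.34 at 108 h. Courses A and B gave the same shape, with medians of -0.57 and -0.65 at 12 h, 0.15 and -0.09 at 54 h, and -1.35 and -1.34 at 108 h. Over all genes the median stayed between -0.07 and 0.02. The highest mean lay between 42 h and 60 h in 17 of the 33 genes, against 17% of all genes. It lay at 0 h in 10, and in 2379 of all 14296 genes. The lowest mean lay between 102 h and 120 h in 28 of 33, against 22.1% of all genes. These windows were set after the courses had been seen, so the counts are a description.

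**Figure D1:**
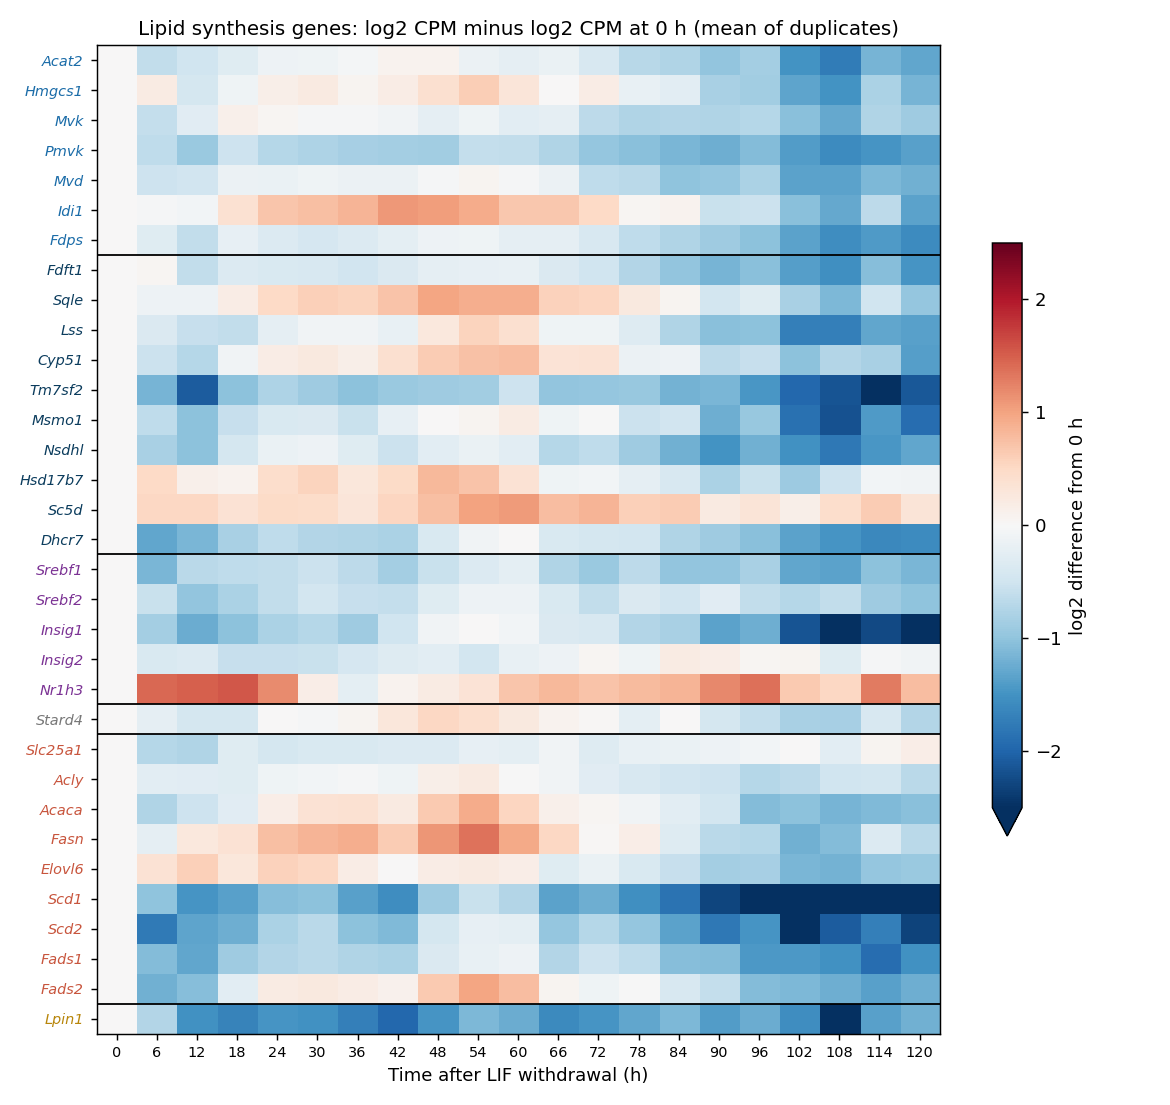
Log2 difference from 0 h (colour, log2 CPM, mean of courses A and B) of the 33 genes (rows, by role, name colour marking the role) at the 21 time points (columns, h). Blue columns at 6 h and 12 h and from 90 h on enclose a paler or red band around 54 h. The colour scale ends short of the lowest values, so its darkest blue is not particular to 1 gene. Scd1 lies beyond its end at 120 h, with -4.37.

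**Figure D2:**
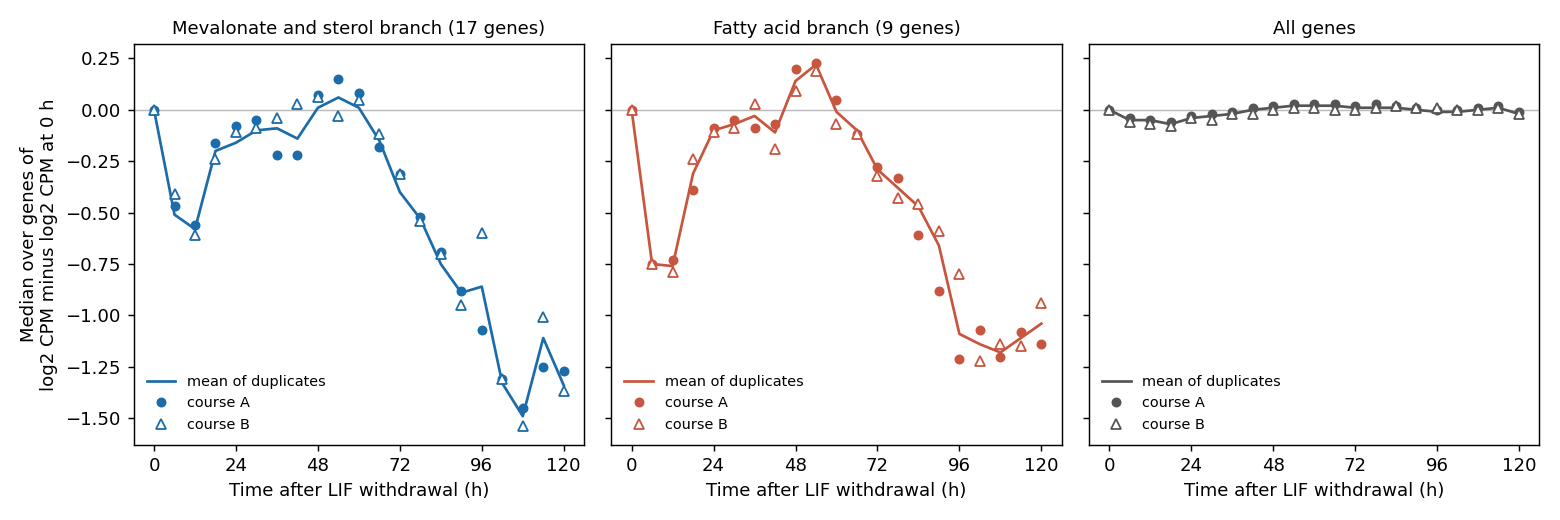
Median over genes of the log2 difference from 0 h (vertical axis) against time (horizontal axis, h) for the 17 mevalonate and sterol genes, the 9 fatty acid genes and all genes, with course A as circles, course B as triangles and the mean of duplicates as a line. Both branches dip by 12 h (-0.58 and -0.76), recover by 54 h (0.06 and 0.22) and lie lowest at 108 h (-1.49 and -1.18), and the duplicates separate most at 96 h.

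All 7 genes of the mevalonate branch fell between 0 h and 120 h, against 10.1% of all genes, by 0.89 to 1.57 on the log2 scale. Libraries of the time points in the 9 comparisons were left out 1 at a time, which lost the call for Mvk in 14 of 20 cases. These were all 4 libraries of 0 h and 120 h, and 10 of the 16 libraries of other times. None of the 7 passed the threshold between 0 h and 6 h, when 14.5% of all genes fell and 11.8% rose. Between 72 h and 96 h, 2 fell (28.6%, against 1.0% of all genes). Hmgcs1 (ENSMUSG00000093930.1, chr13:119690379-119708260 on GRCm38), the cytosolic HMG-CoA synthase, was at 8.79 in A and 8.76 in B at 0 h, at 9.43 and 9.34 at 54 h, at 7.33 and 7.22 at 108 h, and at 7.59 and 7.61 at 120 h. Its libraries at 54 h lay above every other time point and those at 108 h below, with no overlap. It fell by 1.05 ± 0.14 (SE) between 72 h and 96 h (adjusted p = 3.98e-06) and was 2.26-fold lower at 120 h than at 0 h (log2 -1.18 ± 0.14, adjusted p = 6.88e-08). Idi1, the isopentenyl diphosphate isomerase, stood furthest above its 0 h level within the branch, going from 7.15 and 7.21 at 0 h to 8.22 and 8.23 at 48 h, and then to 5.87 and 5.81 at 120 h. Idi1 was lower at 96 h (6.35 and 6.96) than at 72 h (7.47 and 7.87) by 1.01 ± 0.16 (adjusted p = 3.77e-05).

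The other 5 members of this branch fell over the whole course without standing above 0 h for long. Acat2, the acetoacetyl-CoA thiolase, was at 6.64 and 6.77 at 0 h and at 5.40 in both libraries at 120 h. The kinases of the branch, Mvk and Pmvk, were at 5.04 and 5.01 and at 6.10 and 6.21 at 0 h, and at 4.20 and 4.06 and at 4.75 and 4.87 at 120 h. Pmvk had its highest level at 0 h in both courses, whereas Mvk had it at 18 h in both. Mvd, the diphosphate decarboxylase, went from 6.10 and 6.15 to 4.99 and 4.87. Fdps, which makes farnesyl diphosphate, went from 7.14 and 7.30 to 5.57 and 5.73. Both 120 h libraries lay below both 0 h libraries in all 5 genes, as they did in 42.1% of all genes. For these 5 the adjusted p ranged from 5.02e-09 (Fdps) to 9.04e-05 (Mvk).

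In the sterol branch 8 of 10 genes fell between 0 h and 120 h (80.0%, against 10.1% of all genes), and Hsd17b7 and Sc5d did not pass the test. Msmo1, the sterol C4-methyl oxidase, fell most among the genes whose level came back in mid-course. It was at 6.86 and 6.96 at 0 h, 5.92 and 5.84 at 12 h, 7.17 and 7.05 at 60 h, 5.80 and 6.15 at 96 h and 4.99 and 5.02 at 120 h. The fall from 96 h to 120 h was 1.96-fold (log2 -0.97 ± 0.14, adjusted p = 2.12e-05) and that from 72 h to 96 h was 1.89-fold (adjusted p = 2.82e-05). Against 0 h, Msmo1 was 3.75-fold lower at 120 h (log2 -1.91 ± 0.14, adjusted p = 8.71e-12).

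Cyp51, the lanosterol 14α-demethylase, passed the threshold in 4 of the 9 comparisons made. It was at 7.02 and 7.0 at 0 h and at 6.55 and 6.42 at 6 h. By 24 h it stood at 7.25 and 7.16, a rise of 0.72 ± 0.12 from 6 h (adjusted p = 2.43e-05). Its highest mean came at 60 h, with 7.84 and 7.75. It then fell from 7.17 and 7.59 at 72 h to 6.30 and 6.58 at 96 h (adjusted p = 1.79e-06) and to 5.64 and 5.62 at 120 h (adjusted p = 2.65e-05), and the libraries of these 3 time points did not overlap.

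Sqle, the squalene epoxidase that is a slow step of the route, had the highest level in mid-course relative to 0 h within the sterol branch apart from Sc5d. Sqle was at 6.67 and 6.64 at 0 h, at 7.64 in both libraries at 48 h, and at 5.77 and 5.59 at 120 h. It fell by 0.85 ± 0.12 between 72 h (7.22 and 7.16) and 96 h (6.16 and 6.52), with adjusted p = 1.03e-05. Lss, the lanosterol synthase, fell by 0.90 ± 0.12 over the same interval, from 6.46 and 6.25 to 5.27 and 5.63 (adjusted p = 2.74e-06). Its level was 7.13 and 6.93 at 54 h and 4.81 and 4.71 at 102 h, a difference between means of 2.27 that is the range of its whole course.

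Dhcr7, a terminal reductase of the route, fell early. Its libraries went from 6.59 and 6.65 at 0 h to 5.33 in both at 6 h, a 2.45-fold difference (log2 -1.29 ± 0.10, adjusted p = 1.43e-11). Dhcr7 rose again by 24 h, to 6.00 and 5.96 (0.65 ± 0.10, adjusted p = 4.29e-06). At 60 h it was at 6.56 and 6.70, which overlapped its level at 0 h. It was lower at 96 h (5.52 and 5.63) than at 72 h (6.28 and 6.09) with adjusted p = 3.22e-05, and at 120 h stood at 4.98 and 5.13. Tm7sf2, a sterol C14-reductase, also fell by 6 h, from 3.99 and 4.32 to 3.05 and 2.93 (adjusted p = 2.07e-05). Its level at 12 h, 2.14 and 2.01, was close to that at 120 h, 2.18 and 1.89, and it did not return to its starting level in between.

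Fdft1, the squalene synthase, was at 7.62 and 7.64 at 0 h and 6.18 and 6.12 at 120 h. Nsdhl, a sterol dehydrogenase, was at 5.31 and 5.52 and at 4.18 and 4.06. Both fell over the whole course, with adjusted p of 2.8e-10 and 1.31e-06. Hsd17b7, which acts beside Nsdhl in the same demethylation, was at 3.70 and 3.75 at 0 h and at 3.70 and 3.59 at 120 h, a difference of -0.08 ± 0.16 (adjusted p = 0.691). It was at 4.57 and 4.53 at 48 h and fell by 0.87 ± 0.16 to 3.81 and 3.54 at 72 h (adjusted p = 7.31e-05). Sc5d, the lathosterol desaturase, had its lowest level at 0 h in both courses (4.53 and 4.39), its highest at 60 h (5.56 and 5.49), and 4.81 and 4.75 at 120 h (adjusted p = 0.0198 against 0 h, which missed the threshold).

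**Figure D3:**
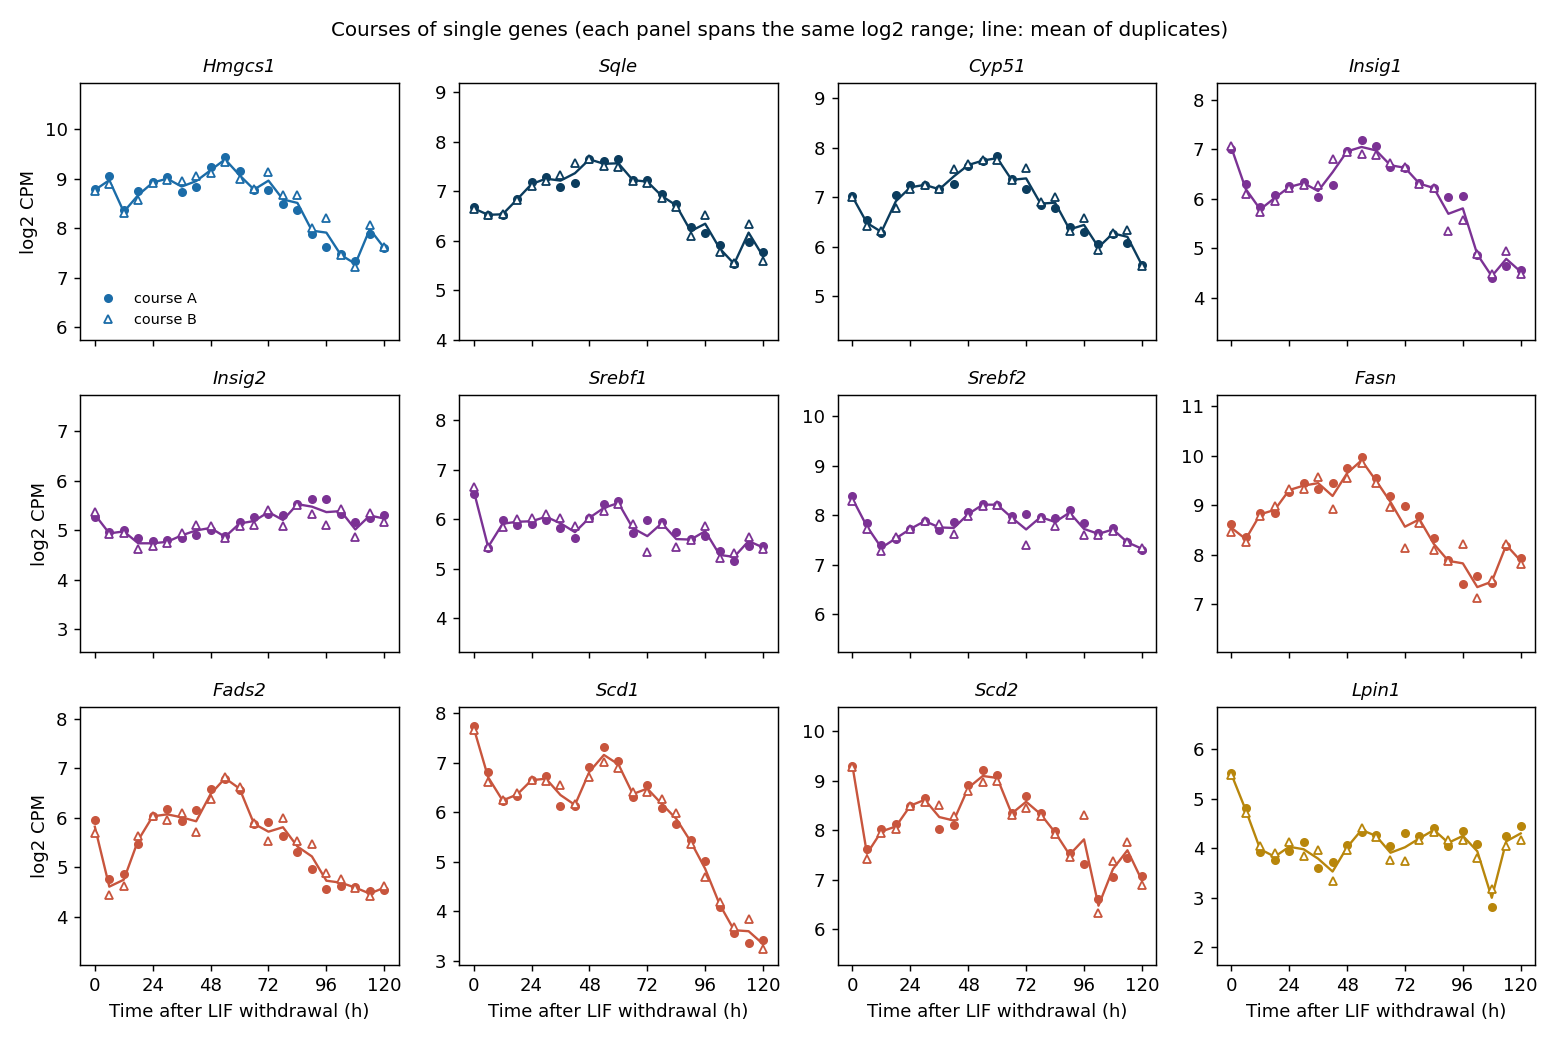
Level in log2 CPM (vertical axis, each panel spanning the same log2 range) against time (horizontal axis, h) of 12 genes, with course A as filled circles, course B as open triangles and the mean of duplicates as a line. Hmgcs1, Sqle, Cyp51, Insig1, Fasn and Fads2 have their highest mean between 48 h and 60 h and a late low, although Insig1 in course B is highest at 0 h. Scd1 and Scd2 are highest at 0 h in both courses, stand higher at 54 h than at 6 h, and also have the late low. The means of Insig2 span 0.79, and Lpin1 has a dip at 108 h.

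The 5 regulators did not move as a group. Insig1 and Insig2, paralogs that retain the SREBPs, took separate courses, and their correlation over the 21 time points was -0.20. Insig1 (ENSMUSG00000045294.10, chr5:28071363-28078662) was at 7.01 and 7.07 at 0 h, 5.84 and 5.74 at 12 h, 7.19 and 6.91 at 54 h and 4.56 and 4.49 at 120 h. It fell 2.43-fold from 96 h (6.05 and 5.57) to 120 h (log2 -1.28 ± 0.17, adjusted p = 4.43e-06), and was 5.70-fold lower at 120 h than at 0 h (adjusted p = 8.93e-13). Insig2 was at 5.27 and 5.38 at 0 h and at 5.32 and 5.16 at 120 h, a difference of -0.09 ± 0.13 (adjusted p = 0.614). Its libraries at these times overlapped, and its means spanned 0.79 over the whole course.

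Srebf1 and Srebf2 encode the SREBPs themselves, the first known mainly for fatty acid genes and the second for sterol genes. Srebf1 fell within 6 h, from 6.52 and 6.65 to 5.43 and 5.45 (log2 -1.14 ± 0.14, adjusted p = 8.82e-08), and ended at 5.46 and 5.39. Its level at 60 h, 6.36 and 6.30, was below both 0 h libraries. Srebf2 was at 8.38 and 8.28 at 0 h, 7.39 and 7.28 at 12 h, 8.21 in both at 60 h and 7.29 and 7.34 at 120 h, and it was 2.02-fold lower at the end than at the start (adjusted p = 7.04e-08). The libraries at 72 h disagreed for both genes, with 5.98 and 5.34 for Srebf1 and 8.02 and 7.39 for Srebf2. Per kilobase of exon, Srebf2 was the more abundant at 0 h (44.9 against 17 RPKM) and at 120 h (22.2 against 7.65 RPKM). Nr1h3, the oxysterol receptor LXRα, was the least abundant of the 33 genes, at 0.311 RPKM at 0 h, and its level was -0.61 and -0.10 log2 CPM at 0 h and 0.93 and 1.24 at 6 h. That difference of 1.44 ± 0.29 did not pass the threshold (adjusted p = 1.43e-04). Stard4, which carries cholesterol between membranes, was at 5.70 and 5.76 at 0 h, 6.28 and 6.20 at 48 h and 5.10 and 4.88 at 120 h, and passed the threshold in none of the 9 comparisons.

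Of the 9 fatty acid genes, 5 fell between 0 h and 6 h (55.6%, against 14.5% of all genes). Between 0 h and 120 h, 7 fell (77.8%, against 10.1% of all genes). The pair of stearoyl-CoA desaturases, which place the first double bond, had the lowest differences of the branch over the whole course. They lie on the same chromosome, Scd2 at chr19:44293674-44306864 and Scd1 at chr19:44394455-44407879. Scd2 was at 9.31 and 9.29 at 0 h and at 7.63 and 7.43 at 6 h, a 3.41-fold fall (log2 -1.77 ± 0.19, adjusted p = 1.41e-08). It was at 9.22 and 8.97 at 54 h and at 7.08 and 6.90 at 120 h. Scd1 was at 7.75 and 7.67 at 0 h, at 6.82 and 6.61 at 6 h, at 7.32 and 7.01 at 54 h and at 3.42 and 3.25 at 120 h. The later part of this fall was steep, with 6.55 and 6.41 at 72 h, 5.01 and 4.70 at 96 h, and no overlap between successive days. From 72 h to 96 h Scd1 fell 3.08-fold (adjusted p = 4.19e-09) and from 96 h to 120 h 2.87-fold (adjusted p = 1.79e-08). Over the whole course it was 20.7-fold lower (log2 -4.37 ± 0.14, adjusted p = 1.73e-19), the largest difference among the 33 genes in these comparisons. Per kilobase of exon, Scd2 was at 115.0 RPKM and Scd1 at 42.9 RPKM at 0 h, and they were at 23.2 and 2.07 RPKM at 120 h.

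Fads1 and Fads2, the Δ5 and Δ6 desaturases of polyunsaturated fatty acids, lie on the same chromosome, Fads1 at chr19:10182888-10196877 and Fads2 at chr19:10062765-10101746. They both fell by 6 h, Fads1 from 6.91 in both libraries to 5.91 and 5.76 (adjusted p = 2.64e-09) and Fads2 from 5.96 and 5.69 to 4.77 and 4.45 (adjusted p = 7.39e-07). Fads2 then rose 2.68-fold by 24 h, to 6.03 and 6.04 (log2 1.42 ± 0.17, adjusted p = 1.21e-07), the largest rise among the 33 genes from 6 h to 24 h. Its level at 54 h, 6.78 and 6.82, was above 0 h, while that of Fads1, 6.79 and 6.65, was not. Between 72 h and 96 h Fads1 fell from 6.32 and 6.46 to 5.62 and 5.31 (adjusted p = 4.09e-07) and Fads2 from 5.91 and 5.54 to 4.57 and 4.89 (adjusted p = 8.48e-05), a call that was lost in 16 of the 20 cases in which 1 library was left out. At 120 h they stood at 5.41 and 5.37 and at 4.55 and 4.62.

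Acaca and Fasn, which build the chain, stood above their 0 h level in mid-course. Acaca, the carboxylase that makes malonyl-CoA, was at 6.80 and 6.59 at 0 h and at 6.05 and 5.84 at 6 h. It rose by 0.91 ± 0.16 to 6.84 and 6.86 at 24 h (adjusted p = 3.61e-05), was at 7.69 and 7.53 at 54 h, and fell 2.19-fold from 72 h (6.91 and 6.57) to 96 h (5.59 and 5.63, adjusted p = 5.45e-06). Fasn, the fatty acid synthase, was at 8.63 and 8.46 at 0 h, 8.85 and 8.79 at 12 h, 9.97 and 9.85 at 54 h, 7.57 and 7.13 at 102 h and 7.93 and 7.82 at 120 h, so that unlike Acaca it was above its 0 h level by 12 h, where Acaca was at 6.21 and 6.13. It passed the threshold in none of the comparisons, and its duplicates were far apart at 72 h (8.99 and 8.14) and at 96 h (7.42 and 8.23). Acly, which makes cytosolic acetyl-CoA from citrate, had the closest duplicates, with an SD of 0.04. It fell by 0.43 ± 0.07 from 48 h (9.30 and 9.21) to 72 h (8.83 in both, adjusted p = 2.3e-05) and by 0.42 ± 0.07 from there to 96 h (8.37 and 8.45, adjusted p = 7.05e-05). The second of these falls was lost in all 20 cases in which 1 library was left out, and the first without any 1 of the 4 libraries of 48 h and 72 h.

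Slc25a1, the mitochondrial carrier that exports this citrate, did not follow Acly, and their correlation over the 21 time points was -0.38. It fell at the start, from 5.91 and 6.01 to 5.18 and 5.30 at 6 h (adjusted p = 4.84e-05, a call lost without any 1 of these 4 libraries), and was at 6.14 and 6.10 at 120 h, with no low point late in the course. Elovl6, the elongase of long saturated chains, was at 7.86 and 7.84 at 0 h, had its highest mean at 12 h (8.47 and 8.43), and was lower at 120 h (6.94 and 6.90, adjusted p = 2.76e-06). Lpin1, a phosphatidate phosphatase of triglyceride synthesis, was at 5.53 and 5.48 at 0 h and at 3.93 and 4.04 at 12 h, with 4.33 and 4.41 at 54 h. At 108 h it was at 2.82 and 3.18, below its libraries at every other time point, and it rose 2.19-fold to 4.24 and 4.04 at 114 h (log2 1.13 ± 0.17, adjusted p = 3.34e-05). It was the only member that passed the threshold in that interval.

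Successive comparisons asked when the level of the members moved beyond the spread between duplicates. From 0 h to 6 h, 8 of 33 members fell and none rose, where 14.5% of all genes fell and 11.8% rose, so the share that fell, 24.2%, was above the background and the share that rose below it. All 8 (Tm7sf2, Dhcr7, Srebf1, Slc25a1, Scd1, Scd2, Fads1 and Fads2) had both 6 h libraries below both 0 h libraries. The same held for 26 of the 33 members and for 6248 of the 14296 genes. Without normalisation factors 19 members fell, but the number of all genes that fell also grew, from 2070 to 2951. The median of all genes was then -0.27 and that of the members -0.78. The members thus lay lower than all genes by about the same distance under either scaling. Without B at 6 h, 4 members fell (Dhcr7, Srebf1, Scd2 and Fads1) and 1, Sc5d, rose. Slc25a1 was lost without any 1 of the 4 libraries compared, Tm7sf2 without 3 of them, Fads2 without 2 and Scd1 without 1. All comparisons share a single estimate of the spread, so libraries of other time points count too, and without A or B at 96 h the members that fell were 11 and 10, and 2, Sc5d and Nr1h3, rose in both cases. From 6 h to 24 h, 4 members rose (Cyp51, Dhcr7, Acaca and Fads2) and none fell, against 5.64% and 5.76% of all genes. Leaving out any 1 of these 4 libraries (A or B at 6 h, A or B at 24 h) left 1 member, Fads2, past the threshold, and leaving out A or B at 96 h gave 8 and 7. From 24 h to 48 h no member passed by limma, against 8.97% of all genes in either direction. At an unadjusted p under 0.05 from limma, however, 16 of the 33 were higher and 2 lower, against 21.9% and 16.8% of all genes. The share that was higher thus lay above the background and the share that was lower below it.

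**Figure D4:**
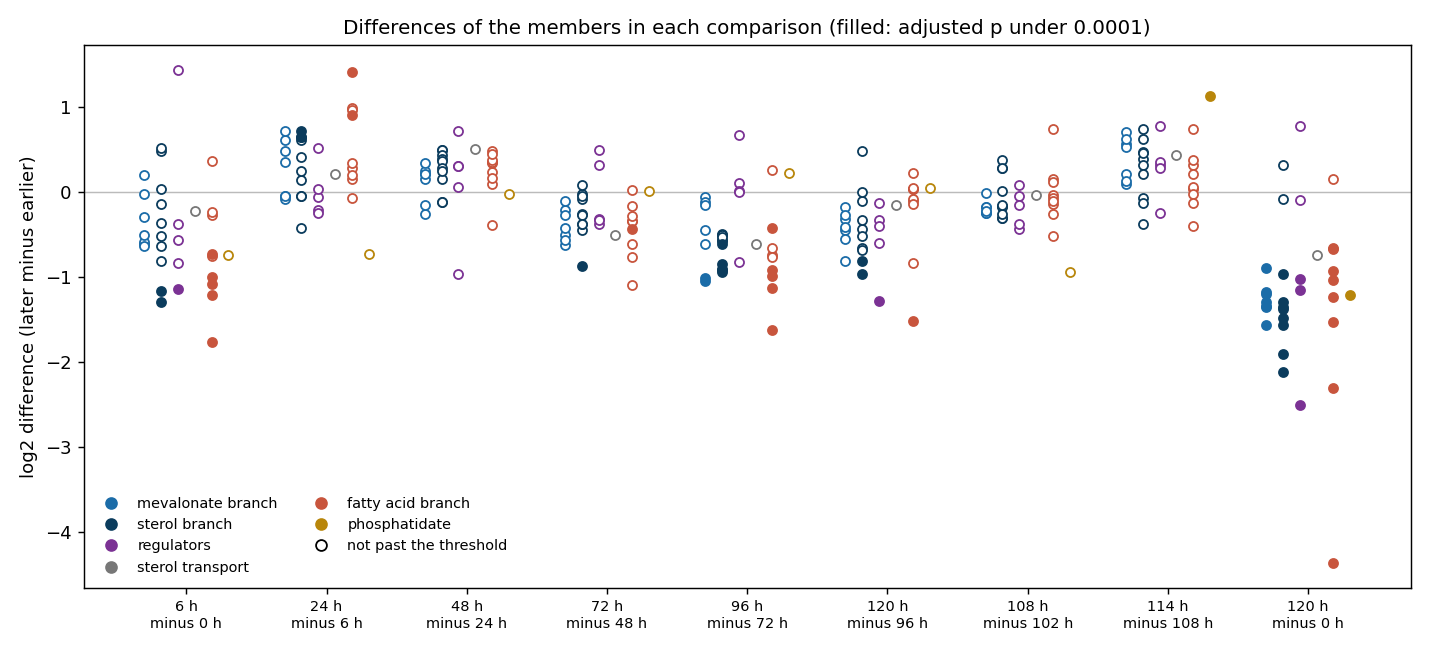
Log2 difference (vertical axis, later minus earlier) of each of the 33 genes in the 9 comparisons (horizontal axis), coloured by role and filled where the adjusted p from limma was under 0.0001. Filled points lie below 0 at 6 h minus 0 h, 96 h minus 72 h and 120 h minus 0 h, where 8, 12 and 26 members fell, and above 0 at 24 h minus 6 h, where 4 rose.

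From 48 h to 72 h, Hsd17b7 and Acly fell and none rose, a share of 6.06% against 3.78% of all genes. That count was 0 without A or B at 48 h, 0 without B at 72 h and 2 without A at 72 h, then Srebf2 and Fasn. It was 3, with Fasn, without A or B at 96 h, and 1 (Acly) without A or B at 0 h, 108 h, 114 h or 120 h. Between 72 h and 96 h, 12 of 33 members fell (36.4%), where 1.0% of all genes fell, and none rose, where 2.39% of all genes rose. They were Hmgcs1 and Idi1 of the mevalonate branch, Sqle, Lss, Cyp51, Msmo1 and Dhcr7 of the sterol branch, and Acly, Acaca, Scd1, Fads1 and Fads2 of fatty acid synthesis. The median difference over the 33 members was -0.61 and that over all genes 0.01. The choice of library moved the count, which was 6 without A at 72 h, 4 without B at 72 h, 5 without A at 96 h and 12 without B at 96 h, and Scd1 and Fads1 were past the threshold in each of these 4 cases. Dhcr7, Acly and Fads2 were past it in none of the 4. The median was -0.38 with B alone at 96 h and -0.77 with A alone. The direction of the median was the same in each of these.

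From 96 h to 120 h, 4 members fell (Cyp51, Msmo1, Insig1 and Scd1) and none rose, 12.1% against 0.686% of all genes. Without A at 96 h the count was 6, without B at 96 h 2, and without either library of 120 h 1, Scd1. The interval from 102 h to 108 h had no member past the threshold by limma, against 2.04% of all genes in either direction, with 5 members higher and 6 lower at an unadjusted p under 0.05, shares near the 14.3% and 12.2% of all genes at that p. Without A or B at 72 h, Lpin1 passed. From 108 h to 114 h, Lpin1 rose, 3.03% of the members against 0.986% of all genes, and the median of the members was 0.32. That rise was lost, and the count 0, without any 1 of the 4 libraries (A or B at 108 h, A or B at 114 h), and the count was 2, with Hmgcs1, without A or B at 96 h. In 24 of the 33 genes both courses were higher at 114 h than at 108 h, which was the case for 38.9% of all genes.

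Over the whole course 26 of 33 members fell, 78.8% against 10.1% of all genes, and none rose, where 12.9% of all genes rose. The median difference was -1.21, with -1.14 in course A and -1.28 in course B, and that of all genes was -0.02. In 29 of the 33 both 120 h libraries lay below both 0 h libraries, which held for 42.1% of all genes. The 7 that did not pass were Hsd17b7, Sc5d, Insig2, Nr1h3, Stard4, Slc25a1 and Fasn. Stard4 (-0.74 ± 0.19, adjusted p = 1.63e-03) and Fasn (-0.67 ± 0.21, adjusted p = 9.22e-03) were lower at 120 h without reaching the threshold. Leaving out 1 library of 0 h or of 120 h gave counts from 23 to 25, and Mvk was lost in each of these 4 cases, Elovl6 in 2, and Nsdhl, Acaca and Lpin1 in 1 each.

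The difference between the mid-course high and the late low was not among the comparisons planned, so it is given as values with no test. On the log2 scale, the mean at 108 h minus the mean at 54 h was -3.55 for Scd1, -2.60 for Insig1, -2.45 for Fasn, -2.25 for Lss, -2.22 for Msmo1, -2.21 for Fads2 and -2.20 for Idi1. It was -0.50 for Srebf2, and Insig2 and Nr1h3 were on the other side of 0 with 0.15 and 0.16.

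Other genes of lipid handling were counted from a list of 42 genes outside the members, of which 41 were measured. From 0 h to 6 h, 7 of the 41 fell (17.1%, against 14.5% of all genes) and 2 rose (4.88%, against 11.8%), so the share that fell was near the background. Over the whole course 14 fell (34.1%, against 10.1% of all genes) and 3 rose (7.32%, against 12.9%). At 6 h Abcg1, a sterol exporter (-2.74), Acacb, the mitochondrial acetyl-CoA carboxylase (-1.43), and Acsl3, an acyl-CoA synthetase (-1.24), were among the lowest. The genes that rose were Nus1 (0.76) and Acadl (0.68). Over the whole course the sterol exporters Abca1 (-1.93) and Abcg1 (-1.81) were among the lowest, and those that rose were Soat1, which esterifies cholesterol for storage (2.53), Acsl4 (1.05) and Acsl3 (0.67). None of 3 genes that escort or cut the SREBPs passed the threshold from 0 h to 120 h by limma or had an unadjusted p under 0.05, and their median difference was -0.08. From 72 h to 96 h, 4 of the 41 fell (9.76%, against 1.0% of all genes) and none rose, against 2.39%.

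Likeness among the members was measured as Pearson's r over the 21 time points between the means of duplicates, after each gene was standardised, and is a description since the points share their libraries. Fads1 and Fads2 had r = 0.90, Scd1 and Scd2 0.85, Hmgcs1 and Sqle 0.94, and Srebf1 and Srebf2 0.63. Against the mean course of the other mevalonate and sterol genes, Insig2 had r = -0.46, Slc25a1 -0.39, Nr1h3 -0.36, Lpin1 0.27, Sc5d 0.42 and Srebf2 0.59, the lowest of the 33. Among the genes outside the list whose course was most like the mean of the mevalonate and sterol branches were Gm21060 (0.958), Pcyt2 (0.954), Mthfd1l (0.943), Kdelc1 (0.940), Celf4 (0.939), Garem2 (0.936), Ppif (0.934), Rln3 (0.930) and Mtmr11 (0.930). At 0 h, 54 h and 120 h the means were 5.55, 5.83 and 4.45 for Pcyt2, of phosphatidylethanolamine synthesis. An r of at least 0.8 was reached by 389 genes outside the list (2.73%) and by 4 of the 41 other lipid genes (9.76%).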

How the data were processed

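Stranded poly-A libraries of 42 cultures were analysed, 2 biological duplicates (A and B) at each of 21 time points, with time and letter taken from the labels. Per the labels and the study's methods, Trim Galore was used for trimming, TopHat2 for alignment to mm10, HTSeq for counts on GENCODE vM2 genes, edgeR for library scaling and voom for the log transformation, and genes above 1 CPM in at least 2 samples were kept. Tool versions are not given in the sources used here. The values deposited by the authors are log2 CPM with an offset of 0.5 reads, for 14296 genes per library. Whole reads could be recovered from them, with a largest deviation of 2.91e-08 reads, and these served for the depths and the alternative scalings. Counted reads ran from 10120972 to 51652434 per library, and low values are limited by counting error.

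Symbols, coordinates and exon lengths came from GENCODE vM21 on GRCm38 by gene identifier, and 14177 identifiers matched and 119 did not. RPKM used the summed length of merged annotated exons. Time points were compared with limma 3.58.1 in R 4.3.3 (lmFit, eBayes with a trend) on the deposited values, with a factor of 21 time points, all 42 libraries and 21 residual degrees of freedom, and Benjamini-Hochberg adjustment over all genes within each of 9 comparisons. The threshold of 0.0001 is that of the study. The fit was tested on simulated data. Since the duplicates are separate cultures of a single line, p-values measure the spread between cultures of that line.

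All 33 members were described in the order of their roles, with values and adjusted p where they passed. Of the other lipid genes, those with the 3 largest differences in each direction among those past the threshold were named for 6 h and for 120 h against 0 h, as were the 10 genes most alike in course, except for 2 genes that are not reported here. The members, lists and comparisons were chosen with earlier results of these data known. Alternatives were a replicate block, eBayes without a trend, voom precision weights, a mean of at least 0 log2 CPM, no normalisation factors, median-of-ratios size factors, an offset of 2 reads, a threshold of 0.05 and leaving out each library of the times compared, with the libraries of other times added after seeing the data.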

Additional observations from a re-analysis of the deposited data

How the results depend on the processing

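The number of members past the threshold moved with single libraries, with the scaling and with the threshold. Leaving out each library of the times compared, or of the other times among these comparisons, gave 5 to 13 members for 6 h against 0 h (8 with all libraries, with 2 of the 13 higher), 1 to 8 for 24 h against 6 h (4), 0 to 3 for 72 h against 48 h (2), 4 to 12 for 96 h against 72 h (12), 1 to 6 for 120 h against 96 h (4), 0 to 1 for 108 h against 102 h (0) and 0 to 2 for 114 h against 108 h (1). Leaving out libraries outside a comparison, which changes only the shared estimate of the spread, was chosen after seeing the data. The lone library left at a time point was assumed to vary like the others. Leaving out the libraries compared, the median difference of the members ranged from -0.77 to -0.38 for 96 h against 72 h and from -0.57 to -0.20 for 120 h against 96 h. Without normalisation factors, 19 members passed for 6 h against 0 h, all lower, where 2951 of all 14296 genes were lower and 1036 higher. For 72 h against 48 h, 0 members passed, where 287 of all genes were lower and 1137 higher. The medians of the members were -0.78 and -0.18, where the median of all genes moved to -0.27 and 0.16. At a threshold of 0.05, each time against the previous of those compared gave 26 members for 6 h (4 higher and 22 lower, against 27.0% and 31.1% of all genes), 16 for 24 h (14 and 2, against 19.1% and 19.3%), 13 for 48 h (11 and 2, against 17.2% and 12.8%), 13 for 72 h (0 and 13, against 21.5% and 19.4%), 23 for 96 h (0 and 23, against 15.1% and 13.8%) and 15 for 120 h (1 and 14, against 9.49% and 8.28%). It gave 3 for 108 h against 102 h (1 and 2, against 8.92% and 6.57%) and 12 for 114 h against 108 h (11 and 1, against 10.9% and 9.88%). With a replicate block, 13 members passed for 6 h against 0 h, 12 of them lower, where 2295 of all 14296 genes were lower and 1996 higher. The deviations of same-letter libraries from their time point's mean correlated by 0.0795 on average, from -0.474 to 0.598 among 210 pairs of times. Of these pairs, 47.1% were above 0.1. With values so spread, the check cannot decide whether libraries of 1 letter share more than the letter. Of 627 results of single genes past the threshold under the settings planned, 540 kept their side of it, 87 did not, and 0 changed direction. No member passed 0.0001 at 48 h against 24 h in any of them.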
